A study of Mus musculus with 2 samples.

Results

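Kinesins and genes of the mitotic kinetochore, spindle checkpoint and cytokinesis were examined in RNA of the mouse embryonic heart. Members were chosen by symbol alone: protein-coding genes named Kif with a number, Cenp with a single letter, the Aurora and Polo-like kinases, and a fixed set of checkpoint, passenger, midzone and chromosome genes. The rule found 81 of 22240 protein-coding symbols, each with a single row. The data are 2 libraries, replicate 1 and replicate 2, made from total RNA of hearts taken at embryonic day 12.5, from untreated animals of the strain Mixed C57BL/6 x 129S6. They form 1 group, so no condition was compared. The labels name neither the embryos behind each library nor any pooling, and the spread between libraries may be technical. Values are FPKM (fragments scaled for transcript length and for the number of mapped fragments), and are given in the order replicate 1 then replicate 2. Effects of transcript length that remain in comparisons between genes were not tested. The symbol rule itself reads no measured value.

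At mitosis, kinetochores built on centromeric chromatin attach chromosomes to the spindle, the checkpoint holds back the anaphase-promoting complex until every kinetochore is attached, and the midzone then directs the cleavage furrow. Kinesins are motors that use ATP to walk along or take apart microtubules. Some act on the spindle and are made mainly in dividing cells, while others carry vesicles, mitochondria and ciliary cargo in cells at rest. In the embryonic heart, heart muscle cells still divide while contracting, and primitive red cells, endothelium and mesenchyme divide beside them, so RNA of the heart pools the mitotic genes of all of them. In bulk RNA more dividing cells and more RNA per dividing cell cannot be told apart.

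The libraries summed to 388230 and 382561 FPKM over all rows. The files give no read totals. Steps among the lowest values put the depth of replicate 1 at 1.33 times that of the other library. The tissue label was checked against defining markers: all 6 heart muscle genes listed (Myh6, Myh7, Tnnt2, Actn2, Nkx2-5 and Ttn) reached 1 FPKM in both libraries. Their levels ranged from Ttn, at 4.56 and 3.78 FPKM, to Tnnt2, at 1294 and 1228 FPKM. The 6 primitive red cell genes also reached 1 FPKM in both libraries, with summed levels of 19439 and 18798 FPKM. None of 4 hepatocyte genes reached 1 FPKM in both libraries, at sums of 1.87 and 3.23 FPKM.

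Of the 81 members, 70 reached 1 FPKM in both libraries (86.4%), against 52.4% of all protein-coding symbols. A mean of 10 FPKM was reached by 42 members (51.9%), against 27.6% of all protein-coding symbols. The median member was at 11.4 and 10.6 FPKM, where the median protein-coding symbol was at 1.66 in both libraries. Together the members held 0.354% and 0.343% of the summed FPKM. The most abundant was Ube2c (ENSMUSG00000001403), the ubiquitin-conjugating enzyme of the anaphase-promoting complex, at 105 and 98.8 FPKM, which ranked 472 among protein-coding symbols. Kif2b (ENSMUSG00000046755), a spindle depolymerase, was listed at 0 in both libraries. When the members were ordered by mean, 50 of 80 neighbours in that order had ranges over the libraries that overlapped. Such ranges set replicate 1 of a gene against replicate 2 of its neighbour. Overlapping neighbours can thus keep the same order in both libraries, as Racgap1 did above Cdc20. How many neighbours kept their order within each library was not tested.

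**Figure D1:**
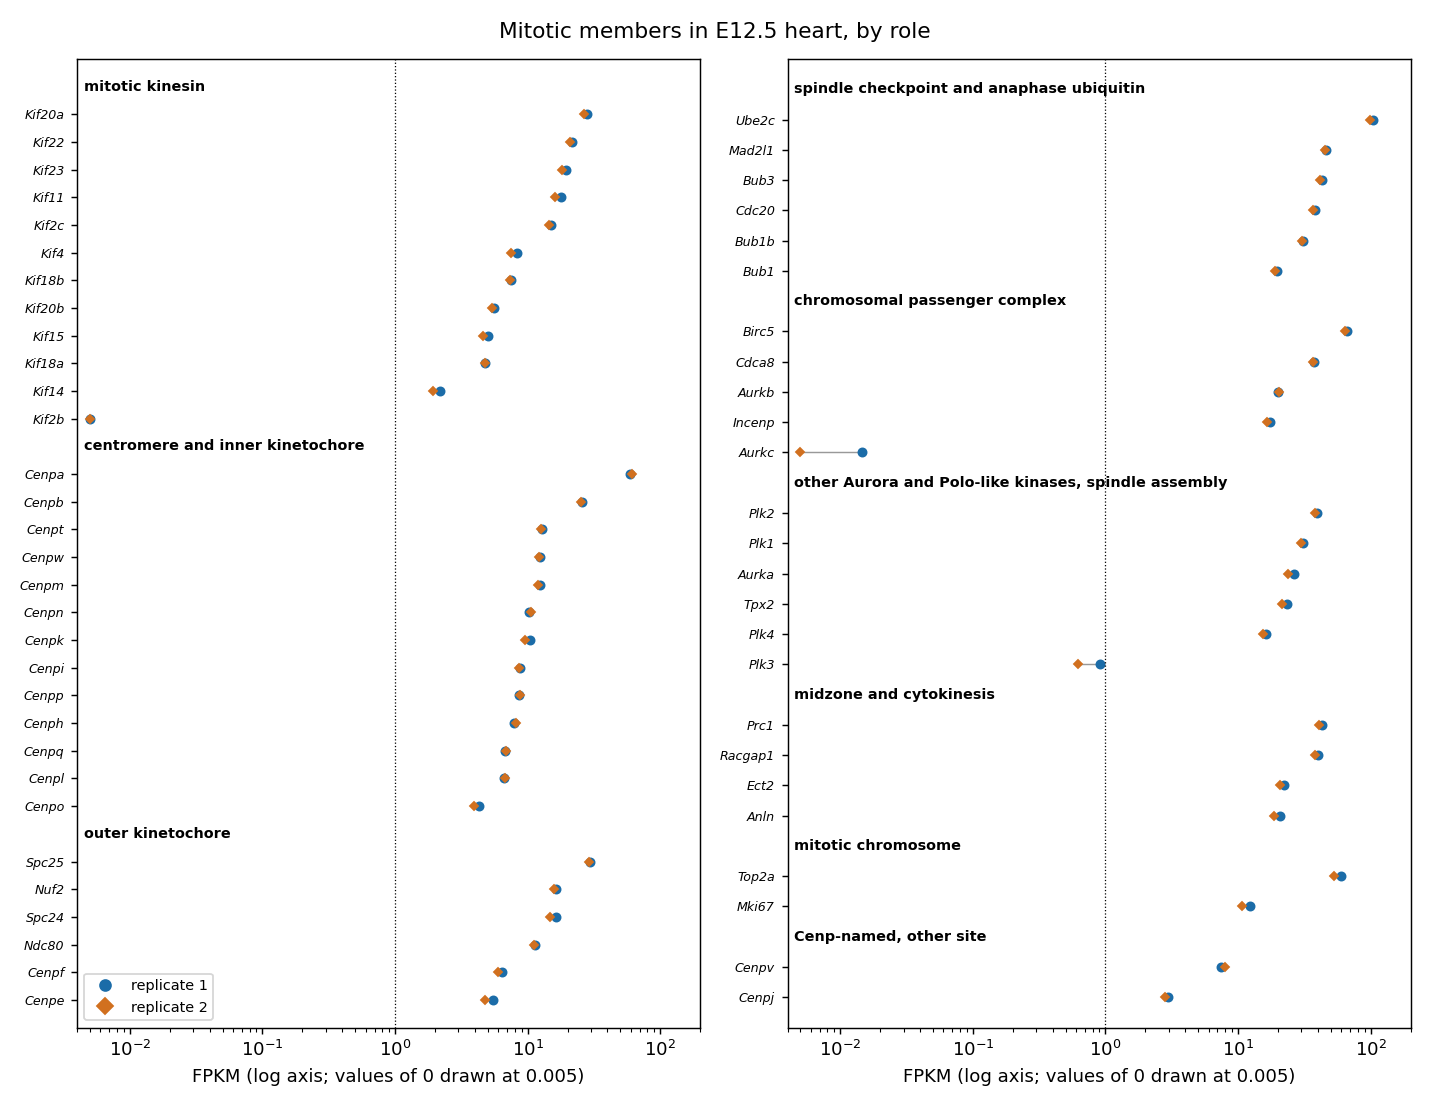
FPKM of the mitotic members on a log axis, grouped by role, with circles for replicate 1, diamonds for replicate 2 and a dotted line at 1 FPKM. Most members lie between 1.94 and 105 FPKM with the libraries close together, and Kif2b, Aurkc and Plk3 stand to the left of the line.

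The mitotic kinesins covered a wide range. Of 12 genes, 11 reached 1 FPKM in both libraries, and their median was 7.89 and 7.43 FPKM. Kif20a, which brings the passenger complex to the midzone, was highest at 28.3 and 26.6 FPKM. The chromosome-arm motor Kif22 followed at 21.7 and 20.9 FPKM. Kif23, the motor of centralspindlin, was at 19.6 and 18.3 FPKM. These 3 did not overlap with each other in either library. Kif20a shares 979 bases of transcript with Cdc23, which was at 40.2 and 40.5 FPKM. The part of Cdc23 reads in the level and rank of Kif20a was not tested. Kif11, the kinesin that pushes the spindle poles apart, was at 17.8 and 16.0 FPKM, 3.56 and 3.45 times the level of Kif15, which can take over part of that task and had a mean of 4.81 ± 0.26 FPKM (SD, n = 2). Kif2c, the centromeric depolymerase, was at 14.9 and 14.6 FPKM. The other detected members lay lower. The chromokinesin Kif4 was at 8.28 and 7.47 FPKM, the plus-end motors Kif18b and Kif18a had means of 7.45 ± 0.07 and 4.78 ± 0.03 FPKM (SD, n = 2), and Kif20b had a mean of 5.47 ± 0.14 FPKM. Kif14, a cytokinesis motor that works with citron kinase, was the lowest above 1 FPKM at 2.16 and 1.94. All 11 were lower in replicate 2, a direction shared by 69.3% of protein-coding symbols that averaged at least 1 FPKM. Rescaling the libraries to a median ratio of 1 brought that share to 50.1%. The minus-end kinesins fall outside the symbol rule. Of these, Kifc1 was at 10.2 and 10.4 FPKM, Kifc2 at 1.08 and 1.08 and Kifc3 at 2.87 and 3.05 FPKM.

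The promoters of these genes were examined because the cell-cycle genes homology region (TTTGAA or TTCGAA) and the CCAAT box are known elements of promoters active in late cell cycle. Both strands were searched in the RefSeq promoters (GRCm38.p6), from 250 bases before to 50 bases after each start. The table matched 71 members with 80 promoters. Kif5a, Kif5b, Kif13b, Kif19a, Kif20a, Kif21b, Aurkb, Incenp, Spc24 and Tpx2 had no entry. TTTGAA was found in 9 of 11 mitotic kinesins (81.8%), the exceptions being Kif18a and Kif2b. Over all members other than transport and other kinesins it was found in 29 of 51 (56.9%). Among the transport and other kinesins it was found in 3 of 20 (15.0%), beside 13.8% of the 8356 protein-coding genes with a promoter entry that reached 1 FPKM in both libraries. A gene counts here if any of its listed promoters holds the letters. Of the 80 promoters, 69 had bases just after the start that lay near the 5′ end of a GENCODE transcript of the gene, and 11 did not, among them those of Kif2c, Kif11 and Kif23. With only such matched promoters, a check added after seeing the data, TTTGAA was found in 6 of 8 mitotic kinesins, in 24 of 44 members outside the transport and other kinesins (54.5%), in 2 of 18 transport and other kinesins (11.1%) and in 13.1% of detected genes. The match asks only that these bases lie near the 5′ end of a transcript, so a matched promoter need not hold the true start. The rarer TTCGAA was present in 7.14% of the 56 promoters of the members outside the transport and other kinesins and in 2.08% of the promoters of genes at 1 FPKM or more.

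CCAAT was found at least once in 33 of those 51 members (64.7%), in 7 of the 20 transport and other kinesins (35.0%) and in 43.5% of the detected genes. At least 2 copies of CCAAT together with TTTGAA or TTCGAA in the same promoter occurred in 17 of the 51 (33.3%), in 1 of the 20, the centriolar Kif24, and in 2.69% of the detected genes. CCAAT and the other motifs shared bases in 2 of the 80 promoters. The 31 of the 51 members with TTTGAA or TTCGAA had a median mean level of 19.3 FPKM, and the 20 with neither had 8.34 FPKM. Roles were not balanced between these groups. Of the 13 centromere and inner kinetochore genes, whose median mean was 9.96 FPKM, 5 held either motif. The 20 with neither included the near-absent Kif2b, Aurkc and Plk3. They also included Birc5 and Mad2l1, among the highest members, with means of 65.5 and 45.9 FPKM. Whether the motifs go with level apart from role was not tested. Matches are descriptions of letters, not measured sites, and the genes below were picked after the matches were seen.

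The last 150 bases before the start are shown for 2 mitotic kinesins, for Ube2c, Cdc20 and Top2a, and for Kif1c, the highest transport kinesin with an entry, which held none of the motifs. Capitals mark every match on either strand. On the other strand a CCAAT box reads ATTGG, and the homology region TTTGAA reads TTCAAA.
Kif22: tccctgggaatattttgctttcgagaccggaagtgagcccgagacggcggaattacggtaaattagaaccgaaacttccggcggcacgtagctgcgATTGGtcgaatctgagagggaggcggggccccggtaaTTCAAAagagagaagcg
Kif11: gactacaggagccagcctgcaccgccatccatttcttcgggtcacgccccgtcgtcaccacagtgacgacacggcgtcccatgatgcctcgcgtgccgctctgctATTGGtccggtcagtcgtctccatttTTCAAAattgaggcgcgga
Ube2c: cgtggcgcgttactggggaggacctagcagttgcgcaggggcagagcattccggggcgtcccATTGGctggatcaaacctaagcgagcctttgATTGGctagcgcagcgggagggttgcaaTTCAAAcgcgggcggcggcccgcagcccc
Cdc20: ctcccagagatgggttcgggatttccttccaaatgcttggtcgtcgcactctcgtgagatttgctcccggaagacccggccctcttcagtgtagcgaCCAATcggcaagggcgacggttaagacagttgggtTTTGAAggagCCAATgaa
Top2a: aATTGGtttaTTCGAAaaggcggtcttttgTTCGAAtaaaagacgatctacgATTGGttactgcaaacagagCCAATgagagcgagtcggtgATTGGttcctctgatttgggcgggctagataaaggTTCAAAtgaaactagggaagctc
Kif1c: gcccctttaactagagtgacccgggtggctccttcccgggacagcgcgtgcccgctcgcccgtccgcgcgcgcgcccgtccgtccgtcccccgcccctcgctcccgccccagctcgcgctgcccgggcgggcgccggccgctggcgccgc
The windows are chr7:127042421-127042570 on the minus strand for Kif22, chr19:37376232-37376381 on the plus strand for Kif11, chr2:164769779-164769928 on the plus strand for Ube2c, chr4:118437344-118437493 on the minus strand for Cdc20, chr11:99024190-99024339 on the minus strand for Top2a and chr11:70700398-70700547 on the plus strand for Kif1c, all on GRCm38.p6. In Kif22, Kif11, Ube2c, Cdc20 and Top2a a copy of TTTGAA or its complement begins 17, 19, 29, 18 and 23 bases before the start, with a CCAAT copy upstream of it in each. The listed start of Kif11 is among those not matched to a transcript.

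The transport kinesins reached higher single levels than any mitotic kinesin, but with more genes near 0. Of 15 genes, 12 reached 1 FPKM in both libraries, and the median was 4.90 and 5.39 FPKM. The mitotic median was thus 1.61 and 1.38 times the transport median, a log2 ratio on the FPKM + 1 scale of 0.50 ± 0.13 (SD, n = 2), while the levels of the classes overlapped over most of their range. The sums went the other way, at 136 and 128 FPKM for mitotic and 164 and 151 FPKM for transport kinesins. Counting the other kinesins with the transport class raised the log2 ratio of medians to 1.25, where the median of the joined class was 2.65 FPKM.

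Kif5b, the widely expressed heavy chain of conventional kinesin, was the highest kinesin at 41.2 and 37.4 FPKM (chromosome 18, 6201000 to 6242172, minus strand, mm9). Its relatives known from neurons were near the floor: Kif5c was at 0.551 and 0.628 FPKM and Kif5a at 0.275 and 0.236 FPKM. Kif5b thus made up 97.9% ± 0.21 (SD, n = 2) of the summed FPKM of the 3 heavy chains. Kif1c, a vesicle motor, was at 37.7 and 34.9 FPKM (chromosome 11, 70514050 to 70545466, plus strand, mm9). It was below Kif5b in both libraries, although its range over the libraries overlapped that of Kif5b. Kif1b, which carries mitochondria and vesicles, was at 27.5 and 23.6 FPKM and below Kif1c in both libraries. The neuronal Kif1a was at 1.65 and 1.72 FPKM. Kif1b was 16.7 and 13.7 times the level of Kif1a.

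The neuronal marker list was read beside these motors. Of its 9 genes, 4 (Tubb3, Stmn2, Elavl4 and Nefl) reached 1 FPKM in both libraries, the list summed to 9.76 and 10.6 FPKM, and no gene of it was at 0. The part of nerve cells in the values of Kif1a, Kif5a, Kif5c and Kif21b was not tested.

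Kif13a, an endosomal motor, was at 21.3 and 20.0 FPKM and its relative Kif13b at 1.29 and 1.13 FPKM, a difference of 16.5 and 17.7 times. The heterodimeric motors of cilia and vesicles were close to each other: Kif3a was at 8.52 and 8.09 FPKM, Kif3b at 6.21 and 6.03 and Kif3c at 6.31 and 5.70. Kif3b and Kif3c overlapped and their order differed between the libraries. Their shared subunit Kifap3 was at 15.5 and 14.6 FPKM. Of the rest, the early endosome motor Kif16b was at 4.90 and 5.39 FPKM, Kif21a at 3.35 and 3.28, Kif21b at 2.81 and 2.49, and Kif17 at 0.194 and 0.197 FPKM.

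Partners of the transport motors were present as well. All 10 genes of that list reached 1 FPKM in both libraries, against 52.4% of all protein-coding symbols. Among them were the light chains Klc1 at 44.1 and 42.6 FPKM and Klc2 at 13.3 and 12.8 FPKM. The mitochondrial adaptors Trak2 and Trak1 were at 25.4 and 24.7 and at 18.8 and 17.9 FPKM.

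**Figure D2:**
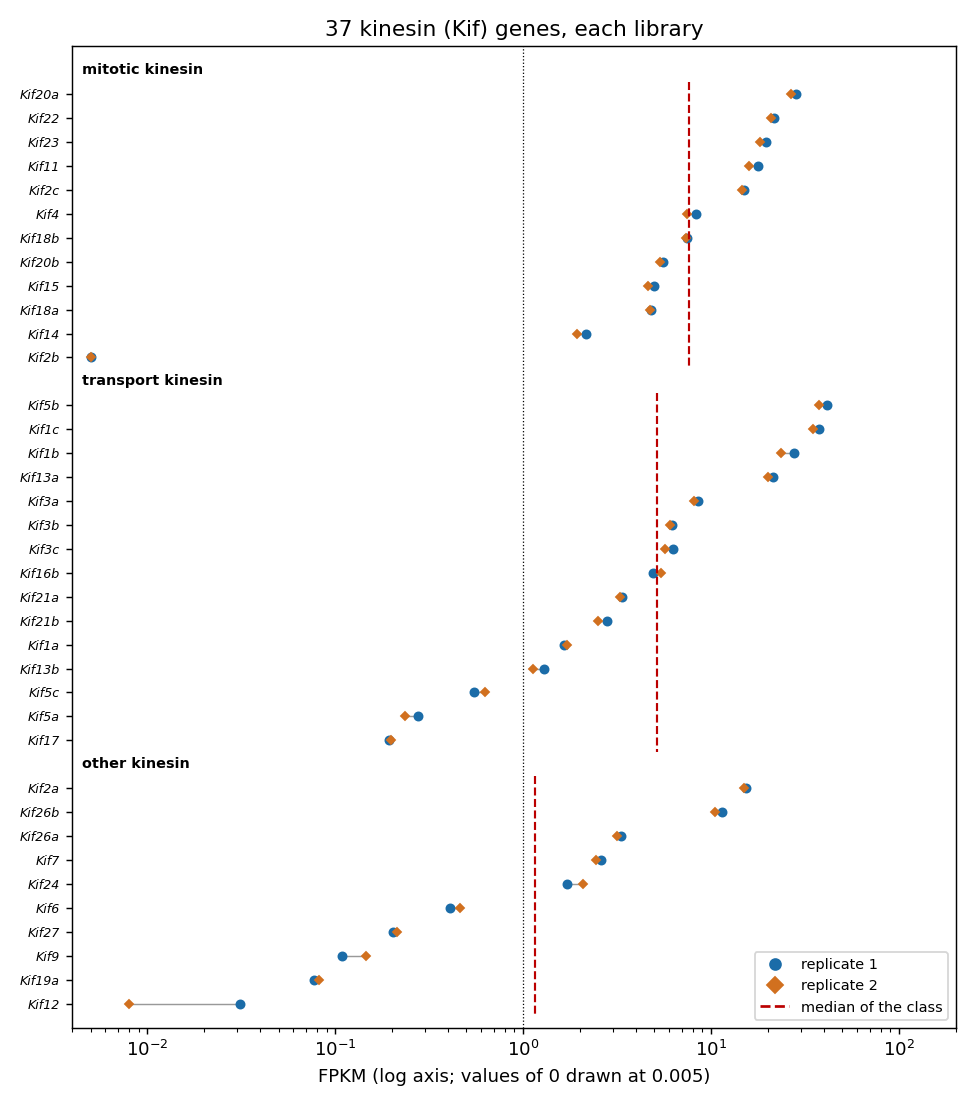
FPKM of the 37 Kif genes on a log axis in replicate 1 (circles) and replicate 2 (diamonds), with a dashed line at the median of each class and a dotted line at 1 FPKM. Kif5b and Kif1c lie above every mitotic kinesin, and the genes under 1 FPKM are mostly transport and other kinesins.

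Kinesins of neither class separated into detected and near-absent genes. Kif2a, a depolymerase of spindles and of interphase microtubules, was at 15.4 and 14.9 FPKM and lay next to Kif2c, 1.03 and 1.02 times its level. Kif26b and Kif26a, atypical kinesins of signalling and adhesion, were at 11.4 and 10.5 and at 3.32 and 3.18 FPKM. Kif7, a regulator of Hedgehog signalling at the cilium tip, was at 2.61 and 2.43 FPKM, and Kif24 at 1.71 and 2.07 FPKM. The other 5 were under 1 FPKM. Kif6 was at 0.409 and 0.459 FPKM, Kif27 at 0.202 and 0.213, Kif9 at 0.109 and 0.145, Kif19a at 0.0772 and 0.0823 and Kif12 at 0.0311 and 0.00800 FPKM. Kif6, Kif9 and Kif19a are known from motile cilia or flagella, and none of 5 multiciliated cell markers reached 1 FPKM in both libraries, at sums of 1.87 and 1.97 FPKM.

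At the centromere, all 13 inner genes reached 1 FPKM in both libraries. Cenpa (ENSMUSG00000029177; chromosome 5, 30969150 to 30977200, plus strand, mm9), the histone H3 variant that marks the centromere, was at 58.8 and 61.6 FPKM. Cenpb, which binds a motif of centromeric repeats, was at 25.6 and 25.3 FPKM. The remaining 11 belong to the constitutive complex that links Cenpa chromatin to the outer kinetochore, and they lay within a factor of 3.10, from Cenpo at 4.26 and 3.95 FPKM to Cenpt at 12.9 and 12.6 FPKM. Its parts are read here as subsets of these 11, so their factors cannot exceed 3.10. Cenpw, the histone-fold partner of Cenpt, was at 12.3 and 12.1 FPKM, and the means of this pair differed by a factor of 1.04. Cenph, Cenpi, Cenpk and Cenpm differed by at most 1.52, Cenpl and Cenpn by 1.54, and Cenpo, Cenpp and Cenpq by 2.11. Cenpl was at 6.67 and 6.77 FPKM and Cenpq at 6.79 and 6.90 FPKM, next above Cenpo. Members of the complex known here by other symbols were in the list of partners: Cenpc1 had a mean of 11.1 ± 0.04 FPKM, Mlf1ip (Cenpu) at 2.99 and 2.87, Itgb3bp (Cenpr) at 7.59 and 7.72, Apitd1 (Cenps) at 7.87 and 8.17, and Stra13 (Cenpx) at 21.7 and 21.9 FPKM. The factors above leave these partners out. Stra13 lay above Cenpt and Mlf1ip below Cenpo, so with them the complex spread over more than a factor of 3.10. Cenpj, a centriole protein, and Cenpv, a microtubule-associated protein, carry the name without belonging to the constitutive complex and were at 2.94 and 2.80 and at 7.42 and 7.94 FPKM.

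The outer kinetochore was detected in full, with 6 of 6 genes at 1 FPKM or more. The 4 subunits of the Ndc80 complex, which grips the microtubule and holds equal numbers of each subunit, differed by a factor of 2.60 in their means. Spc25 was at 29.8 and 28.9 FPKM, Nuf2 at 16.2 and 15.7, Spc24 at 16.3 and 14.8 and Ndc80 at 11.5 and 11.1 FPKM. Spc25 was 1.83 and 1.84 times Nuf2, while Nuf2 and Spc24 overlapped. Cenpf was at 6.45 and 5.97 FPKM, and Cenpe, the kinetochore motor that gathers chromosomes at the equator, at 5.48 and 4.75 FPKM.

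Checkpoint and ubiquitin genes were the highest group, with a median of 40.6 and 39.5 FPKM and all 6 genes above 18 FPKM in both libraries. After Ube2c came Mad2l1, the checkpoint protein that binds Cdc20, at 46.3 and 45.5 FPKM. Bub3 was at 42.8 and 41.9, Cdc20, the activator of the anaphase-promoting complex, at a mean of 37.7 ± 0.94 (SD, n = 2), Bub1b at 30.9 and 30.4 and Bub1 at 19.7 and 18.9 FPKM. Bub3, which partners both Bub1 and Bub1b, was 2.17 and 2.22 times Bub1. Ube2c was 2.73 and 2.67 times Cdc20.

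Of the passenger complex, the 4 genes of its somatic form were between 16.5 and 66.5 FPKM. Birc5 (survivin) was at 66.5 and 64.4 FPKM, Cdca8 (borealin) at 37.2 and 36.5, the kinase Aurkb at 20.0 and 20.3 and the scaffold Incenp at 17.4 and 16.5 FPKM, and none of these overlapped. Birc5 was 3.32 and 3.18 times Aurkb. Aurkc, the Aurora kinase of meiosis, was at 0.0147 FPKM in replicate 1 and listed at 0 in replicate 2. None of 5 germ cell markers reached 1 FPKM in both libraries, at sums of 0.654 and 0.637 FPKM and with Dppa3 at 0 throughout. In these files a 0 may also stand for an estimate that failed.

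Aurka, the spindle pole Aurora kinase, was at 26.3 and 23.9 FPKM, 1.31 and 1.18 times Aurkb, and its activator Tpx2 was at 23.5 and 21.4 FPKM. Among Polo-like kinases, Plk2 was highest at 39.6 and 38.3 FPKM, above the mitotic kinase Plk1 at 30.8 and 29.6 and the centriole duplication kinase Plk4 at 16.2 and 15.5 FPKM. Plk3 stayed under 1 FPKM at 0.907 and 0.619. Plk2 held 45.2% and 45.5% of the summed FPKM of the 4 kinases.

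In cytokinesis, the midzone bundler Prc1 was at 43.1 and 40.8 FPKM and Racgap1, the partner of Kif23 in centralspindlin, at 39.9 and 37.8. Racgap1 was 2.03 and 2.07 times Kif23. Ect2, which switches on RhoA at the furrow, was at 22.4 and 20.8 FPKM, and the furrow scaffold Anln at 20.8 and 18.7 FPKM. Of the chromosome genes, the topoisomerase Top2a was at 59.6 and 53.4 FPKM (chromosome 11, 98854257 to 98885503, minus strand, mm9). Mki67, which coats mitotic chromosomes and is the antigen of the common proliferation stain, was at 12.2 and 10.6 FPKM, so Top2a was 4.94 times Mki67 in the means.

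Of 43 further mitotic genes in the partner list, 42 reached 1 FPKM in both libraries, against 52.4% of all protein-coding symbols. The median of their means was 11.1 FPKM, against 1.67 FPKM for all protein-coding symbols. The list was drawn up with earlier results of these data known. Among them were Cdk1 at 101 and 97.6 FPKM, the kinetochore protein Zwint at 102 and 98.4 FPKM, the cyclin Ccnb1 at 43.4 and 39.7 FPKM and the transcription factor Foxm1 at 19.7 and 19.3 FPKM. The exception was Ube2s, at 1.07 and 0.824 FPKM.

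**Figure D3:**
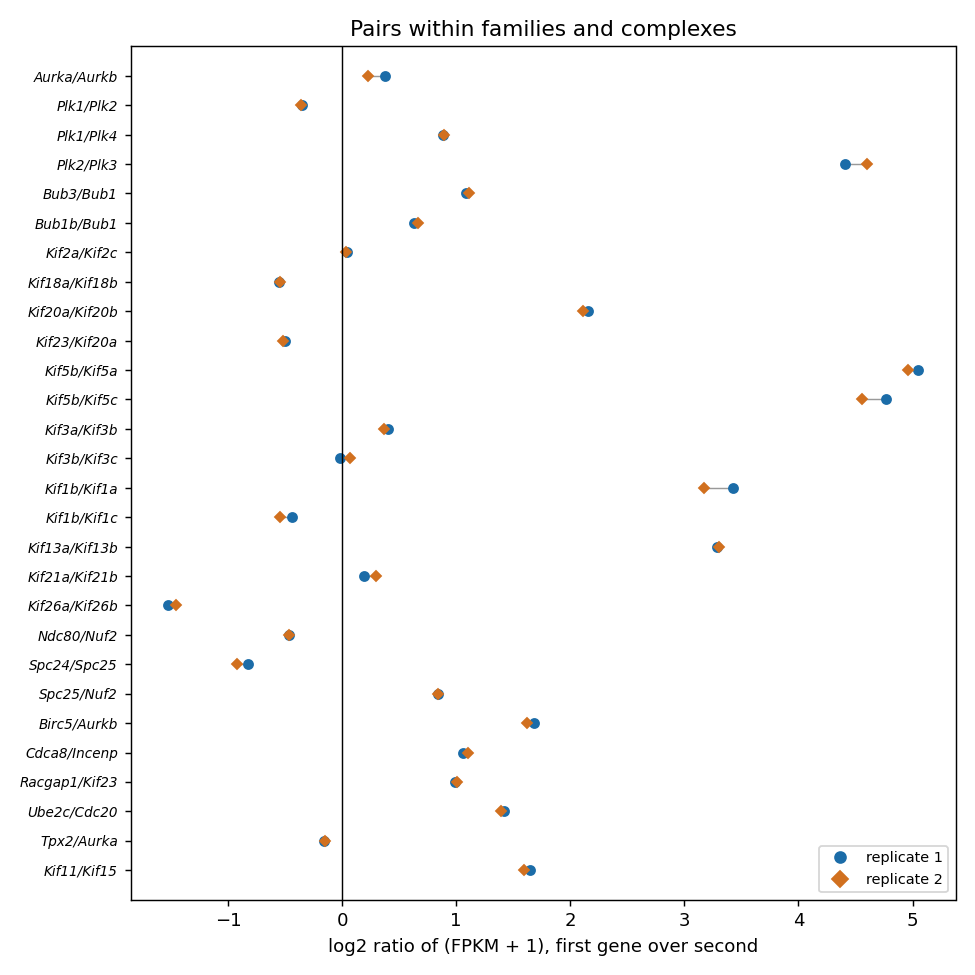
Log2 ratio of FPKM + 1 between the genes of 28 pairs, in replicate 1 (circles) and replicate 2 (diamonds), with a vertical line at equal levels. The libraries lie close together for each pair, Kif5b over Kif5a is the largest ratio on this scale at 5.05 and 4.96, and Kif3b over Kif3c crosses 0.

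Among 30 pairs chosen for comparison, 2 had a gene listed at 0 in a library (Kif2b or Aurkc) and are given no ratio. In 1 of the other 28, Kif3b against Kif3c, the values of the genes overlapped between the libraries. An exact sign-flip test over 2 libraries cannot give a 2-sided p below 0.5, and none was run on the pairs. The log2 ratios of pairs with a gene near 0 depend on the value added to FPKM: with 0.1 in place of 1, Kif5b over Kif5a moved to 6.79, and Kif5b over Kif5c from a mean of 4.66 to 5.84.

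No member differed 1.5-fold or more between the libraries on the FPKM + 1 scale. This is 0 of 70 with a mean of 1 FPKM or more, where 0.468% of all protein-coding symbols at that mean did. The largest log2 differences among these were -0.21 for Kif1b and 0.18 for Kif24. Small differences leaned one way: 59 of the 70 members were lower in replicate 2 (84.3%), against 69.3% of all protein-coding symbols at that mean, and the median log2 difference was -0.05 for members and -0.04 for all. After the libraries were rescaled to a median ratio of 1, 44 of 70 members were lower in replicate 2 (62.9%), against 50.1% of all.

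Transcript length moved with this lean. Of protein-coding genes under 1500 bases 61.8% were lower in replicate 2, and of those of 6000 bases or more 88.1%. Of members, 2 of 6 under 1500 bases and 15 of 17 of 6000 bases or more were lower. In the range from 3000 to 4500 bases 18 of 18 members were lower, against 67.8% of all. Across the 70 members Pearson's r between log2 length and the log2 difference was -0.38, and it was -0.22 across 11531 protein-coding genes. These points share the same pair of libraries and are a description only. The part of length in the lower values of replicate 2 was not tested further.

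**Figure D4:**
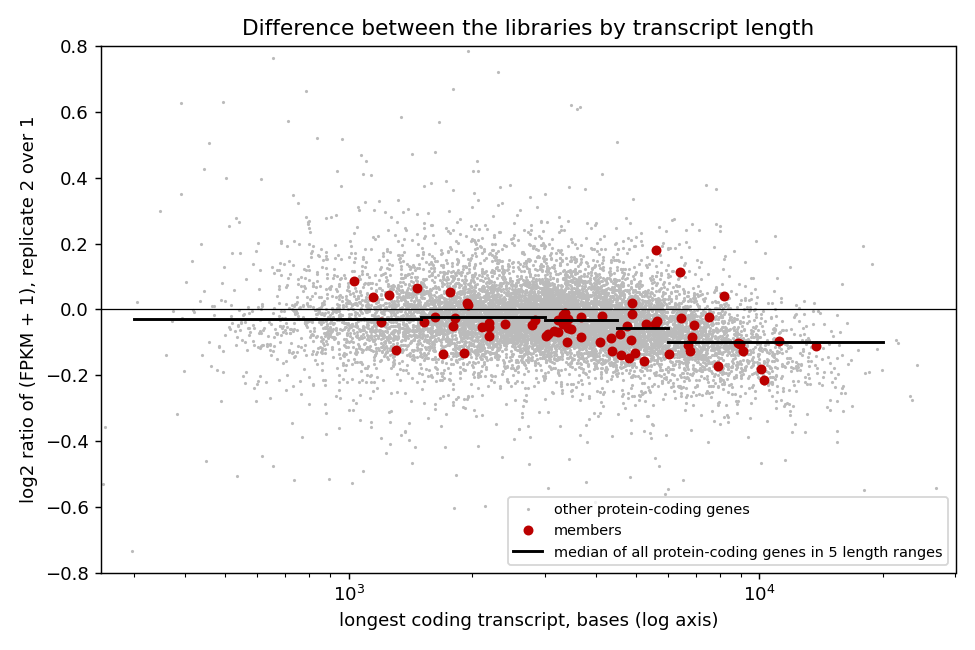
Log2 ratio of FPKM + 1 in replicate 2 over replicate 1 against transcript length on a log axis, for members (red) and other protein-coding genes whose mean reached 1 FPKM (grey, 9 genes lie beyond the axis). Black lines give the median of all protein-coding genes in 5 length ranges, which is -0.03 in the shortest range and -0.10 in the longest.

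Reads of neighbouring genes may add to some values, since the library kit does not mark strand. Of the members, 7 share at least 200 bases of transcript with a neighbour at 1 FPKM or more: Kif3c, Kif2a, Kif20a, Cenpo, Kif4, Prc1 and Cenpp. The largest neighbour levels were those of Cdc23, at 40.2 and 40.5 FPKM, which shares 979 bases with Kif20a, and of Pdzd11, at 24.8 and 25.3 FPKM, which shares 684 bases with Kif4. By gene span, introns included, 12 members were overlapped by a gene of the opposite strand at 1 FPKM or more. Bub3 lies wholly within Fgfr2, which was at 12.1 and 11.7 FPKM. Cenpo shares 268 bases of span with 2410017P09Rik, which had the higher level of the pair at 15.6 and 16.0 FPKM. On the same strand, Cenpb lies wholly within the span of Spef1, which was at 2.30 and 2.11 FPKM. Aurkc has a near-identical processed pseudogene, Gm12463, at 0.0169 and 0 FPKM. The levels of these members are uncertain to that extent. The positions of the members themselves were spread over 19 chromosomes, with 11 on chromosome 2, 9 on chromosome 11 and 8 on chromosome 4.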

How the data were processed

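The authors deposited a table of FPKM per gene for each of 2 heart libraries. Per the labels' protocols, RNA was isolated with Trizol and prepared with TruSeq v2 chemistry from Illumina. The tools GSNAP, Cufflinks and Cuffnorm, and the builds mm9 and hg19, come from the submitters' processing notes, without roles or versions. The annotation and the treatment of multi-mapped reads are not stated in the labels. Gene positions are on mm9, since the last gene of chromosome 1 ends at 197054592.

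Protein-coding rows with the same symbol were summed. Log2 values used a pseudocount of 1 FPKM, and detection a limit of 1 FPKM. The symbol rule reads no values, but the set it defines was proposed, and the roles, pairs, partner and marker lists were drawn up, with earlier results of these data known. All members may be named, and full values go to the highest 4 and lowest 3 of each role and to both genes of a pair. Classes of kinesins follow their known roles. For relative depth, 2881 genes below 0.1 FPKM were compared, of which 483 had a ratio within 0.05 log2 units of the value given. Counts were not used here, so no interval for counting error is given. Transcript lengths and shared sequence came from GENCODE M21 (BLAST 2.17.0, 98% identity over at least 75 bases), matched by gene ID, and promoters from RefSeq on GRCm38.p6, matched by symbol. The alternatives were other limits, pseudocounts, classes, filters, rescaling and each library alone. The estimate of relative depth and the 1.5-fold rule were tested on simulated data, and the other steps were not. Python 3.11.15, NumPy 2.4.6, pandas 2.3.3 and Matplotlib 3.10.9 were used. No protein sequences were used here.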

Additional observations from a re-analysis of the deposited data

How the results depend on the processing

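The count of 70 detected members was 72 at a limit of 0.5 FPKM and 66 at 2 FPKM. Counting the other kinesins with the transport kinesins moved the transport median from 5.15 to 2.65 FPKM and the log2 ratio of the mitotic to the transport median from 0.50 to 1.25. With only members at a mean of 1 FPKM or more, the transport median was 6.06 FPKM and the log2 ratio 0.33. Without the members that share 200 bases with a gene at 1 FPKM or more, an alternative chosen after seeing the data, the mitotic median was 6.46 FPKM and the transport median 4.23 FPKM, while the log2 ratio was 0.51. The mitotic median stayed above the transport median in each of these and in each library alone, where the log2 ratio ranged from 0.40 to 0.59. The log2 ratio of Kif3b to Kif3c was 0.02 in the mean, -0.0194 without replicate 2 and 0.0693 without replicate 1, the only pair whose direction changed under the alternatives run. The 30 pair ratios were computed again with each of the pseudocounts 0.1 and 0.5 FPKM. Of the ratios so computed, 41 moved by more than the SD of the main ratio. The pairs with Kif2b and Aurkc, given no ratio above, are among the 41. That SD comes from 2 libraries and was as small as 0.0033, for Ndc80 over Nuf2, so many such moves are small in size. The count of members that differed between the libraries was 0 under every filter, fold and pseudocount tried, each changed alone. The run without a filter on the mean kept the pseudocount of 1 FPKM, under which genes near 0 cannot differ 1.5-fold. The run with 0.1 FPKM kept the filter. These runs thus could not call members near 0, such as Kif12 at 0.0311 and 0.00800 FPKM. No paired analysis was possible because the libraries form 1 group. Only relative depth could be read, so levels under 0.1 FPKM, such as those of Kif12 and Aurkc, are given without a counting error.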
